A study of Mus musculus with 9 samples.

Results

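The genes described here encode Wnt ligands, their Frizzled receptors and the secreted antagonists of the Sfrp and Dkk families. They were taken by name, as every non-control probe of the array whose gene name starts with Wnt, Fzd, Sfrp or Dkk and a number. That gave 37 of the 28478 gene names on the array, read by 49 probes: 19 Wnt genes, 10 Fzd genes, 4 Sfrp genes and 4 Dkk genes. Each gene was read through its probe with the highest mean signal, since 12 of the 37 had several.

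The cells were epithelial, from C57BL/6 mice, and their RNA was read on 3 arrays in each of 3 sorted groups. MHCIIhi cells came from the small intestine, were released with EDTA and lay in the gate with high Epcam and high MHC class II. MHCIIlo cells came from the same tissue and release step and had intermediate levels of both proteins. Kidney cells were freed with collagenase, dispase and DNAse and sorted as Epcam-positive, with no MHC class II gate. CD45, a leukocyte protein, and Fluorogold, a dye that enters dead cells, were gated out in each group. Each intestinal array held RNA from a pool of 3 mice and each kidney array from a pool of 4 mice. No group carried a mutation or a treatment per the labels, and the sources used here give no age for the mice.

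Wnt proteins are lipid-modified signals that travel short distances. They bind Frizzled receptors on the cell surface together with the co-receptors Lrp5 and Lrp6, which keeps beta-catenin from being degraded and lets it act with Tcf and Lef factors in the nucleus. Other Wnt proteins act without beta-catenin, through planar cell polarity and related routes. Sfrp proteins carry a Frizzled-like domain and bind Wnt proteins outside the cell, whereas Dkk1 and Dkk2 bind Lrp5 and Lrp6. In the intestine this pathway maintains the stem cells and Paneth cells of the crypt, and in the developing kidney Wnt9b and Wnt4 drive the formation of nephrons.

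The measurement of each gene rests on a 60-base probe, and the probes of some genes with wide differences are shown by the first 30 of their 60 bases. Coordinates are those of the whole probe in the array's annotation, build mm8. The strand follows in words, and all letters are lower case because no part was singled out.
Wnt3, chr11:103632185-103632244, plus strand: attgtgcgactggatccattcatcgaagtc
Wnt9b, chr11:103543658-103543717, minus strand: tgtctttctagccaaagcttcctctctcaa
Fzd2, chr11:102422389-102422448, plus strand: tcacagtctacatgatcaaatacctcatga
Fzd4, chr7:89284160-89284219, plus strand: acacacgtaaggtatccagtggatttctct
Fzd5, chr1:64666898-64666957, minus strand: gtatctaaaagttgtggggtggagcggatg
Fzd9, chr5:135533572-135533631, minus strand: tatttaatgatgtaatttattgtggcattt
Sfrp1, chr8:24913185-24913244, plus strand: cggaatcagtatagcgtggaaggagacagt
Dkk2, chr3:132116699-132116758, plus strand: tcagagtgatgatgtcatcagaagtttata

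Because the family is made of related genes, the 49 probes were compared with each other. The longest run of identical bases between probes of different members was 14 of 60, and it joined the Fzd2 probe to the weaker of the Fzd7 probes. Every other probe shared at most 10 bases in a row with a probe of another member. A stretch of 30 bases of each probe is shown with the shared 14 in capitals.
Fzd2: tgacgctcATCGTGGGCATCACgtcgggct
Fzd7: tacctgatgaccatgATCGTGGGCATCACt

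Levels below are the log2 of the processed signal relative to the 75th percentile of that array, listed for arrays 1, 2 and 3 of a group in that order. A level of one gene cannot be set against that of another, because probes differ in brightness. Differences are log2 values ± SE from limma, and the word called means an adjusted p (Benjamini-Hochberg) under 0.05 together with an absolute difference of at least 1. A probe counted as measured on an array where the scanner software found it well above background. Where a group was measured on none or only some of its arrays, the difference is also given as "at least" a fold, with the dim group set on each array to the higher of its own signal and the lowest signal well above background. The 75th percentile ran from 213 to 371 scanner units in MHCIIhi, from 100.6 to 185 in MHCIIlo and from 599 to 769.7 in kidney. MHCIIhi 3 lay on the slide of the 3 MHCIIlo arrays, MHCIIhi 1 and 2 on another, while a separate slide held kidney 1 to 3. Kidney and its slide therefore cannot be told apart. Epcam, Cdh1, Krt8 and Krt18, general epithelial markers, were measured on all 9 arrays. In kidney all 3 markers of the thick ascending limb, all 3 of the distal tubule, all 8 of the collecting duct and all 4 of the proximal tubule were measured.

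The kidney arrays measured the most of these genes. Counting any probe of a gene, 28 of the 37 genes were measured on all 3 kidney arrays, 16 on all 3 MHCIIhi arrays and 11 on all 3 MHCIIlo arrays. Over all gene names on the array the shares were 67.4% in kidney, 57.0% in MHCIIhi and 50.2% in MHCIIlo. A set of 10 genes was measured on all kidney arrays and on no intestinal array, namely Wnt2, Wnt5a, Wnt10a, Wnt16, Sfrp1, Sfrp2, Sfrp5, Dkk1, Dkk2 and Dkk3, against 6.5% of all gene names. The lowest level well above background differed by group. It ran from -6.11 to -5.80 on kidney arrays, -5.37 to -4.45 on MHCIIhi arrays and -4.35 to -3.43 on MHCIIlo arrays. A gene at an equal level could thus be measured in kidney alone. Dkk1 and Wnt5a had kidney means of -5.34 and -4.68, below the MHCIIlo range. Wnt3 alone was measured on all MHCIIhi arrays and on no kidney array. Wnt3a, Wnt8a, Wnt10b and Dkk4 were measured on no array.

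For testing, a gene had to be measured by its chosen probe on the 3 arrays of some group. That held for 29 of the 37 members and for 19993 genes in all. Of these 29, 10 were measured on all 9 arrays, 5 on all MHCIIhi and kidney arrays, 13 on all arrays of kidney alone and 1 on all arrays of MHCIIhi alone. The 13 that passed through kidney alone entered the test by their kidney signal, a filter that favours genes higher there without requiring it. Counts over the 29 therefore describe the family and support no statement about its direction. The 8 members not tested were Wnt2b, Wnt3a, Wnt7a, Wnt8a, Wnt8b, Wnt10b, Sfrp4 and Dkk4. Of the tested genes, Wnt5b, Wnt11 and Fzd10 were called in no comparison.

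**Figure D1:**
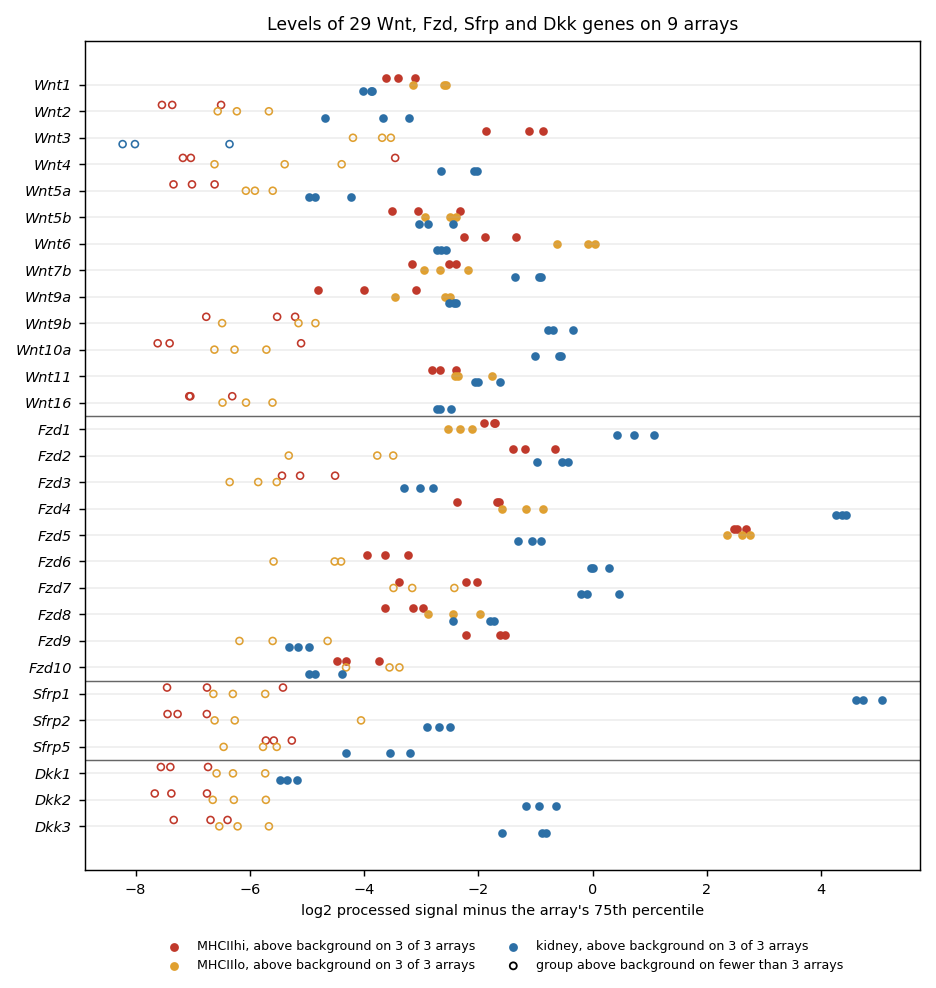
Level of each of the 29 tested genes on every array (x axis, log2 of processed signal over the 75th percentile of the array), with a point per array and a colour per group. Filled points mark a group whose 3 arrays were all well above background and open points a group with fewer; levels are to be read within a gene. Kidney points of Sfrp1 and Fzd4 lie far to the right of the intestinal points, and those of Fzd5 and Wnt3 to the left.

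The Frizzled receptors separated the tissues in opposite directions. Fzd5, the receptor that Paneth cells need to mature, was 12.6-fold higher in MHCIIhi and 12.7-fold higher in MHCIIlo than in kidney. Its level was 2.52, 2.69 and 2.47 in MHCIIhi, 2.76, 2.61 and 2.36 in MHCIIlo, against -0.90, -1.31 and -1.05 in kidney. All 6 intestinal arrays lay above all 3 kidney arrays, and the 2 intestinal groups overlapped. The difference was -3.65 ± 0.18 for kidney minus MHCIIhi (limma adjusted p = 4.98e-07) and -3.66 ± 0.18 for kidney minus MHCIIlo (adjusted p = 4.25e-07). Between the intestinal groups it was -0.01 ± 0.18 (adjusted p = 0.960). A second Fzd5 probe fell by 3.37 and 4.42 on the log2 scale in the same kidney comparisons, and by 1.06 in MHCIIhi relative to MHCIIlo.

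Fzd4, which binds Norrin as well as Wnt proteins and is known for its part in blood vessels, was the receptor with the widest difference in the other direction. It stood at -2.38, -1.64 and -1.67 in MHCIIhi, -1.58, -1.16 and -0.86 in MHCIIlo, against 4.37, 4.26 and 4.43 in kidney, with scanner signals of 53.9 to 119 on the intestinal arrays and 12413 to 16641 on the kidney arrays. The kidney arrays lay together, well above both intestinal groups. Kidney exceeded MHCIIhi by 6.25 ± 0.26, or 76.2-fold (limma adjusted p = 1.62e-07), and MHCIIlo by 5.56 ± 0.26, or 47.2-fold (adjusted p = 2.8e-07). Endothelial markers moved with it: 9 of 9 were called higher in kidney in each comparison. Their summed signal, in multiples of the array's 75th percentile, was 36.1 to 87.0 in kidney, 0.299 to 0.530 in MHCIIhi and 0.471 to 0.604 in MHCIIlo. Pecam1, Cdh5, Kdr, Emcn and Eng were measured on no intestinal array and on all kidney arrays. The part of such cells in the difference was not tested, and in sorted bulk samples fewer cells of a type and less RNA per cell cannot be told apart.

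Fzd1, Fzd3, Fzd6, Fzd7 and Fzd8 were also higher in kidney than in at least 1 intestinal group. Fzd1 stood at -1.70, -1.72 and -1.89 in MHCIIhi, -2.12, -2.53 and -2.31 in MHCIIlo, against 1.07, 0.43 and 0.72 in kidney. That is 5.70-fold and 8.34-fold higher in kidney, with no overlap between any of the 3 groups. Fzd6, a receptor of planar polarity, stood at -3.96, -3.23 and -3.64 in MHCIIhi, -4.40, -5.58 and -4.52 in MHCIIlo, against 0.29, -0.03 and 0.02 in kidney. Its rise in kidney was 3.70 ± 0.33 over MHCIIhi, or 13.0-fold, and at least 16.2-fold over MHCIIlo, which did not measure it. Fzd7, a close relative of Fzd1 and Fzd2, stood at -2.02, -2.22 and -3.40 in MHCIIhi, -3.16, -2.42 and -3.49 in MHCIIlo, against -0.20, -0.10 and 0.46 in kidney. Kidney lay above every intestinal array, by 2.60 ± 0.41 and 3.07 ± 0.41. The other Fzd7 probe, the one that shares 14 bases with Fzd2, gave 0.62 and 0.09 instead.

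Fzd3, also a receptor of planar polarity, stood at -3.03, -3.30 and -2.79 in kidney and was measured on 1 MHCIIhi array and no MHCIIlo array. Kidney was at least 3.15-fold above MHCIIhi and at least 1.85-fold above MHCIIlo, but with normexp background correction both differences turned negative (-0.11 and -0.82). Fzd8 stood at -3.14, -3.63 and -2.97 in MHCIIhi, -2.89, -2.44 and -1.97 in MHCIIlo, against -2.45, -1.79 and -1.72 in kidney. Only kidney and MHCIIhi differed past both thresholds, by 1.26 ± 0.30 (limma adjusted p = 0.00586), and with normexp that difference was 0.34. Fzd10 did not pass: its mean was -4.18 in MHCIIhi, -3.75 in MHCIIlo, where 1 array measured it, and -4.74 in kidney.

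Fzd2 and Fzd9 were the receptors whose level differed most between the intestinal groups. Fzd2 stood at -1.18, -0.66 and -1.40 in MHCIIhi, -3.77, -5.32 and -3.49 in MHCIIlo, where 1 array measured it, against -0.43, -0.53 and -0.97 in kidney. MHCIIhi lay above MHCIIlo by 3.11 ± 0.45 (limma adjusted p = 0.00135), at least 6.28-fold, and kidney lay at least 8.50-fold above MHCIIlo, a difference that was 0.96 and not called with normexp. The other Fzd2 probe, not measured in MHCIIlo, gave 1.19 for MHCIIhi minus MHCIIlo, -0.11 for kidney minus MHCIIhi and 1.08 for kidney minus MHCIIlo. Kidney and MHCIIhi overlapped, with a difference of 0.44 ± 0.45 (adjusted p = 0.419). Fzd9 stood at -1.62, -1.53 and -2.22 in MHCIIhi, -5.60, -6.18 and -4.64 in MHCIIlo, where no array measured it, against -4.97, -5.16 and -5.31 in kidney. All MHCIIhi arrays lay above all others, by 3.68 ± 0.37 over MHCIIlo (adjusted p = 0.000337; at least 4.39-fold) and 10.2-fold over kidney ( adjusted p = 5.64e-05). The Fzd9 probe matches a cDNA clone in the array's annotation, and it is the only Fzd9 probe.

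The comparison of MHCIIhi with MHCIIlo asked whether the gates for MHC class II differ in this family. Of the 29 tested members 9 were called, against a background of 31.0% of all genes tested, which equals the members' own share. Fzd2, Fzd6, Fzd9 and Wnt3 were higher in MHCIIhi and Wnt5a, Wnt6, Wnt9a, Dkk1 and Dkk2 lower. The backgrounds were 14.9% for higher and 16.1% for lower calls. With quantile normalization the split was 4 higher and 2 lower, with normexp 0 and 2. The backgrounds are those of the main processing and cannot be set beside these counts. Group ranges did not overlap for 13 members, against 56.4% of all genes. The median member difference was -0.43, beside -0.24 over all genes tested.

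Wnt3, a ligand that Paneth cells make for the stem cells beside them, was the 1 ligand called higher in MHCIIhi. It stood at -0.86, -1.10 and -1.86 in MHCIIhi, -3.53, -4.19 and -3.68 in MHCIIlo, against -8.01, -8.23 and -6.36 in kidney. In scanner units these were 176, 173 and 58.8, then 16.0, 6.59 and 7.83, then 2.32, 2.21 and 9.40. The 3 groups did not overlap in scaled level, but in scanner units kidney 3 lay above MHCIIlo 2 and 3. MHCIIlo was measured on 1 array and kidney on none. MHCIIhi exceeded MHCIIlo by 2.53 ± 0.49 (limma adjusted p = 0.00445), at least 5.20-fold, and exceeded kidney at least 26.1-fold. For kidney minus MHCIIlo the difference was -3.73 ± 0.49 (adjusted p = 0.000128), and no fold is given because 1 MHCIIlo array and no kidney array measured the gene. A second Wnt3 probe gave 2.10, -4.62 and -2.52 for the 3 comparisons in the order MHCIIhi minus MHCIIlo, kidney minus MHCIIhi and kidney minus MHCIIlo.

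Paneth cell markers moved with Wnt3, as 6 of 8 on the array were called higher in MHCIIhi and 0 lower. Their summed signal was 205 to 283 in MHCIIhi, 37.1 to 111 in MHCIIlo and 16.5 to 25.1 in kidney. Nupr1 (3.29 to 4.06) and Kit (2.60 to 2.92) made up most of the kidney sum, which says little about the other markers. Pla2g2a and Itln1 were measured on no kidney array, and the other 6 on all 3. Goblet cell markers rose as well, 5 of 7, with sums of 1020 to 1950 in MHCIIhi and 357 to 934 in MHCIIlo. Of 8 enterocyte markers 7 fell in MHCIIhi, and 6 of 14 fibroblast and smooth muscle markers, 6 of 7 T cell markers and 3 of 7 B and plasma cell markers fell too. Several fibroblast markers stood out on MHCIIlo 3, where Dcn was 3.95 beside 0.41 and -0.54 on MHCIIlo 1 and 2. Lum, Col1a1 and Col6a1 were measured on 1 MHCIIlo array each. Acta2, Pdgfrb and Myh11 were not highest on MHCIIlo 3. The part of these cell types in the Wnt3, Fzd2, Fzd6 and Fzd9 differences was not tested.

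With slide as a fixed block, MHCIIhi 3 alone is set against the 3 MHCIIlo arrays of its slide and is assumed to vary like the others. There Fzd9 kept its call at 3.25 ± 0.50 (limma adjusted p = 0.0117; its alternatives spanned 0.000327 to 0.208). Fzd2 kept it too, at 2.80 ± 0.65 (adjusted p = 0.0383, the highest of its alternatives, the lowest being 0.00135). Wnt3 lost it at 1.94 ± 0.66 (adjusted p = 0.106, over a range of 0.0015 to 0.106), and so did Fzd6 at 1.20 ± 0.48 (adjusted p = 0.155, over 0.0111 to 0.155). With normexp the differences shrank to 0.50 for Wnt3, 0.67 for Fzd2 and 0.27 for Fzd9, and Fzd6 turned to -0.46. Without the slide term Fzd6 was 1.23 ± 0.33 higher in MHCIIhi (adjusted p = 0.0158), at least 1.24-fold, and it also lost the call without MHCIIhi 2 (1.04, adjusted p = 0.0592) or without MHCIIlo 2 (0.85, adjusted p = 0.0372, under the size threshold).

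The members called lower in MHCIIhi were of another kind. Wnt6 was the only one of them whose arrays were all measured and did not overlap. It stood at -1.88, -2.26 and -1.35 in MHCIIhi, -0.63, -0.08 and 0.04 in MHCIIlo, against -2.56, -2.65 and -2.72 in kidney, and MHCIIhi minus MHCIIlo was -1.61 ± 0.27 (limma adjusted p = 0.00245). Before scaling its signal was nearly flat, at 86.8, 77.6 and 83.9 in MHCIIhi, 119, 114 and 104 in MHCIIlo and 101 to 117 in kidney, while the 75th percentile differed by group as given above. Within the shared slide the difference was -1.12 (adjusted p = 0.0618; alternatives spanned 0.000284 to 0.0618). A second Wnt6 probe gave -1.51.

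Wnt9a stood at -4.01, -4.80 and -3.10 in MHCIIhi, -3.46, -2.50 and -2.59 in MHCIIlo, against -2.51, -2.38 and -2.42 in kidney. Its intestinal groups overlapped, and the call (-1.12 ± 0.42, limma adjusted p = 0.0495) held in 6 of 20 alternatives. Kidney exceeded MHCIIhi by 1.53 ± 0.42 for this gene, but the mean of its probes (0.68) and normexp (0.23) did not pass there. Dkk1, Dkk2 and Wnt5a were called lower in MHCIIhi although neither intestinal group measured them. Their scanner signals were 1.54 to 3.07 on the 6 intestinal arrays, which is not well above background, and no fold is given. With quantile normalization Dkk1 and Dkk2 differed by -0.02 each. Calls of this kind, with neither group measured, made up 2.13% of all genes tested.

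**Figure D2:**
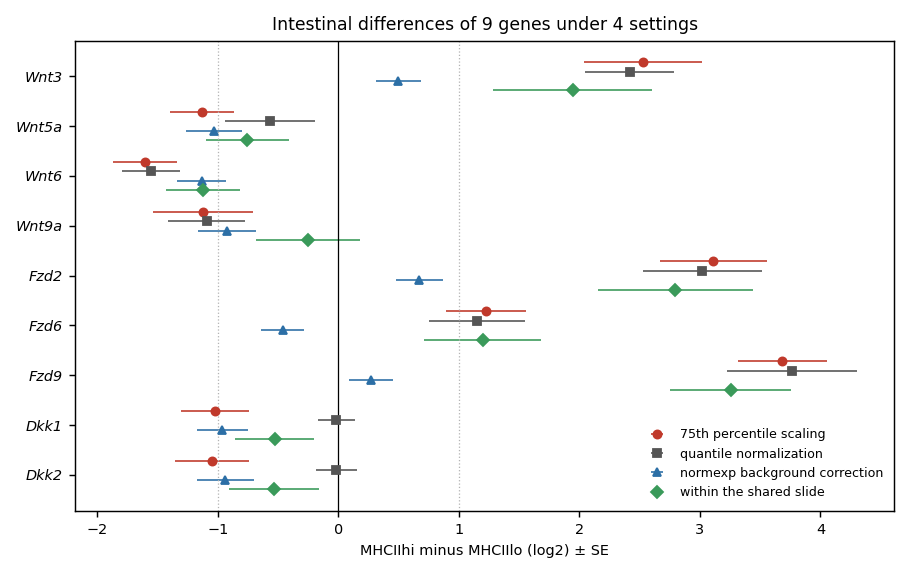
Difference between MHCIIhi and MHCIIlo (x axis, log2, point and SE) for the 9 members called there, with 1 symbol per processing setting and dotted lines at -1 and 1. Fzd2 and Fzd9 lie beyond 2 in 3 of the settings and below 1 with normexp; Dkk1 and Dkk2 lie at -0.02 with quantile normalization.

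In the comparison of kidney with MHCIIhi, 23 of the 29 members were called, 20 of them higher and 3 lower in kidney, against backgrounds of 48.4% called, 25.6% higher and 22.8% lower. Array ranges did not overlap for 26 members, beside 72.2% of all genes. Ligands gave 8 higher and 1 lower call among 13, receptors 6 and 2 among 10, and all 3 tested Sfrp and all 3 tested Dkk genes were higher. Of the 29 members, 13 passed the filter through kidney alone, these Sfrp and Dkk genes among them. The counts and medians of the 29 against either intestinal group therefore support no statement about direction. With normexp the split was 9 higher and 3 lower. Against MHCIIlo, 22 were called, 18 of them higher and 4 lower in kidney, beside 57.6% called, 29.8% higher and 27.8% lower over all genes. Ranges did not overlap for 24 members, beside 78.2% of all genes. Median member differences were 1.98 and 2.29, beside -0.02 and 0.04 over all genes. Against MHCIIlo normexp gave 7 higher and 10 lower. Backgrounds in this paragraph are not those of normexp and cannot be set beside its counts. Among the 10 members measured on all 9 arrays, 5 were higher and 1 lower than in MHCIIhi (40.3% of genes called) and 3 higher and 3 lower than in MHCIIlo (52% called). The 2 comparisons share the kidney arrays.

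**Figure D3:**
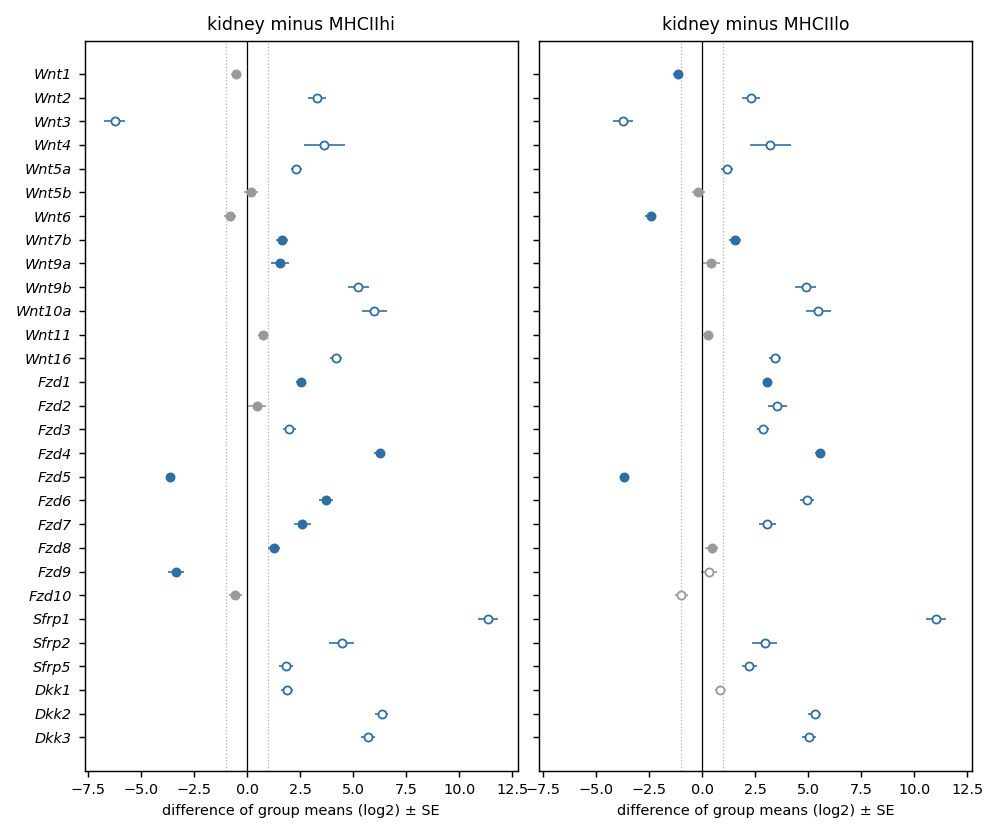
Difference of kidney from MHCIIhi (left) and from MHCIIlo (right) for each of the 29 tested members (x axis, log2, point and SE; dotted lines at -1 and 1). Blue marks called genes, grey those not called, and open points a comparison in which a group was measured on fewer than 3 arrays. Sfrp1 lies at 11.35 and 11.03, and Fzd5 at -3.65 and -3.66.

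Sfrp1 showed the widest difference of the family. Its scanner signal was 7.47, 2.12 and 1.98 in MHCIIhi, 1.86, 1.53 and 1.89 in MHCIIlo, against 14631, 17728 and 25949 in kidney. No intestinal array measured it. Kidney was at least 887-fold above MHCIIhi (limma adjusted p = 1.65e-07) and at least 426-fold above MHCIIlo (adjusted p = 1.74e-07). These bounds hold for the processed signal, and with normexp, which adds an offset to every spot, the log2 differences were 7.18 and 6.38. A second Sfrp1 probe was likewise measured on the kidney arrays alone and gave 7.40 and 6.38. Sfrp2 and Sfrp5 were also measured in kidney alone. Sfrp2 stood at -2.69, -2.50 and -2.90 in kidney, at least 4.88-fold and 2.34-fold above MHCIIhi and MHCIIlo, and Sfrp5 at -4.32, -3.19 and -3.55, at least 2.40-fold and 1.18-fold above them. Intestinal levels lay between -7.44 and -4.05 for Sfrp2 and between -6.46 and -5.27 for Sfrp5. Both directions depended on the background correction: with normexp Sfrp2 was 0.38 against MHCIIhi and -0.56 against MHCIIlo, and Sfrp5 -0.24 and -1.03. Sfrp4 was measured on 1 kidney array and was not tested.

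The 3 tested Dkk genes were measured on the kidney arrays alone, which is how they passed the filter. Dkk2, which can raise or lower Wnt signalling depending on the cell, had signals of 1.58, 2.24 and 1.98 in MHCIIhi, 1.84, 1.55 and 1.91 in MHCIIlo, against 312, 423 and 344 in kidney. Kidney was at least 16.8-fold above MHCIIhi and at least 8.05-fold above MHCIIlo, and with normexp the second difference was 0.86, under the size threshold. Dkk3, a divergent member of the family, had signals of 3.81, 2.30 and 2.07, then 1.99, 1.63 and 1.98, and 199, 359 and 439 in kidney, where it was at least 14.8-fold and 7.11-fold higher; with normexp it was 0.63 above MHCIIlo, not called. The intestinal arrays did not measure either gene, and kidney lay apart from them. Dkk1, an inhibitor of Lrp5 and Lrp6, stayed near the limit of measurement even in kidney, with signals of 16.5, 14.9 and 18.8. Its difference was 1.89 ± 0.28 from MHCIIhi, with no fold bound above 1 and a value of -0.61 with normexp, and 0.87 ± 0.28 from MHCIIlo (limma adjusted p = 0.0208), under the size threshold. Fibroblast and smooth muscle markers summed to 23.7 to 38.6 in kidney, 30 to 34.7 in MHCIIhi and 52.5 to 75.5 in MHCIIlo. Acta2 made up most of the intestinal sums, so these sums say little about the other markers. Its level was 4.77 to 5.01 in MHCIIhi, 5.55 to 5.69 in MHCIIlo and 3.15 to 3.87 in kidney. Of 14 such markers, 7 were called higher in kidney than in MHCIIhi and 1 lower, and 3 higher and 1 lower than in MHCIIlo. Pdgfra was measured on no array of any group. The part of such cells in the Sfrp and Dkk differences was not tested.

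Among the ligands, Wnt9b and Wnt10a were the most strongly raised in kidney. Wnt9b, the ureteric signal that starts nephron formation, stood at -5.21, -5.52 and -6.76 in MHCIIhi, where 1 array measured it, -6.49, -5.15 and -4.85 in MHCIIlo, against -0.68, -0.35 and -0.79 in kidney. Kidney lay above all intestinal arrays, at least 19.99-fold over MHCIIhi (limma adjusted p = 2.17e-05) and at least 9.97-fold over MHCIIlo (adjusted p = 2.61e-05). With normexp its log2 differences were 1.93 and 1.06, still called. Wnt10a, a ligand known from teeth and skin appendages, had signals of 1.63, 2.19 and 6.20 in MHCIIhi, 1.88, 1.57 and 1.92 in MHCIIlo, against 299, 452 and 514 in kidney. It was at least 19.3-fold and at least 9.27-fold higher there, and with normexp 1.91 and 1.05 on the log2 scale.

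Wnt7b, which guides the growth of the renal medulla from the collecting duct, was measured everywhere. It stood at -2.52, -3.16 and -2.39 in MHCIIhi, -2.95, -2.67 and -2.18 in MHCIIlo, against -1.36, -0.90 and -0.94 in kidney. The kidney arrays lay above the others by 1.62 ± 0.28 (3.08-fold) and 1.54 ± 0.28 (2.90-fold), while with normexp the differences were 0.89 and 0.34 and missed the size threshold. Wnt4, which acts after Wnt9b in the nephron, stood at -2.65, -2.02 and -2.07 in kidney, at least 5.30-fold above MHCIIhi and at least 3.20-fold above MHCIIlo. In the intestine it was measured on MHCIIhi 3 alone, at -3.46, with the other 5 arrays between -7.17 and -4.39. With normexp Wnt4 differed by 0.62 and -0.25.

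Wnt16, Wnt2 and Wnt5a were measured on the kidney arrays alone. Wnt16, a ligand known from bone, stood at -2.68, -2.48 and -2.71 there, at least 5.13-fold and 2.46-fold above MHCIIhi and MHCIIlo. Wnt2 stood at -4.69, -3.22 and -3.67, at least 2.18-fold and 1.05-fold above them. Wnt5a, the best known ligand acting without beta-catenin, stood at -4.86, -4.96 and -4.22, at least 1.23-fold above MHCIIhi and with no bound above 1 against MHCIIlo. On the intestinal arrays the levels of these 3 genes ran from -7.54 to -5.60, below every kidney array. With normexp the 3 genes gave 0.38, -0.19 and -0.48 against MHCIIhi and -0.49, -1.17 and -1.51 against MHCIIlo, so that only Wnt16 against MHCIIhi stayed positive.

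Of the 13 tested ligands, Wnt1, Wnt3, Wnt5b, Wnt6 and Wnt11 were called higher in kidney in neither comparison. For Wnt6, kidney minus MHCIIlo was -2.42 ± 0.27 (5.37-fold, limma adjusted p = 4.33e-05) and kidney minus MHCIIhi -0.82 ± 0.27 (adjusted p = 0.0242), under the size threshold. Wnt1, known from the midbrain, stood at -3.41, -3.61 and -3.11 in MHCIIhi, -3.14, -2.56 and -2.61 in MHCIIlo, against -3.86, -3.88 and -4.02 in kidney. Kidney differed by -1.15 ± 0.21 from MHCIIlo (adjusted p = 0.00107) and by -0.54 ± 0.21 from MHCIIhi (adjusted p = 0.0504). The scanner signal of Wnt1 ran the other way, from 16.5 to 21.0 in MHCIIlo, 24.7 to 30.4 in MHCIIhi and 41.3 to 47.5 in kidney, as did the 75th percentile. Wnt11, a ligand of the ureteric bud tip, differed by 0.73 and 0.28 and Wnt5b by 0.18 and -0.18 between kidney and the 2 intestinal groups.

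Several of these ligand genes sit side by side in the genome. In the RefSeq annotation of GRCm38.p6, 4 pairs of members have no other protein-coding gene between them: Wnt9b and Wnt3, Wnt3a and Wnt9a, Wnt6 and Wnt10a, and Wnt10b and Wnt1. Wnt9b was measured on all 3 kidney arrays and 1 MHCIIhi array, and Wnt3 on all 3 MHCIIhi arrays, 1 MHCIIlo array and no kidney array. Wnt6 had signals of 77.6 or more on every array and Wnt10a was measured on the kidney arrays alone. Wnt3a and Wnt10b were measured on no array, whereas Wnt9a and Wnt1 were measured on all 9. Whether the levels within a pair are related was not tested.

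**Figure D4:**
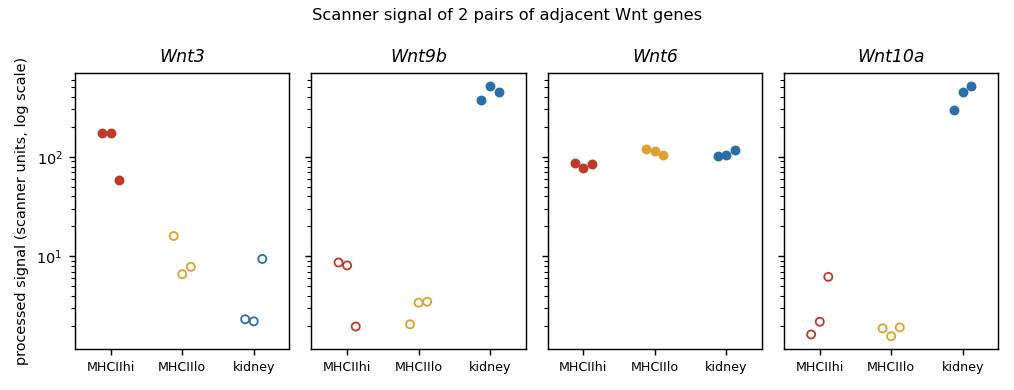
Scanner signal on each array (y axis, log scale, before scaling between arrays) of Wnt3 and its neighbour Wnt9b and of Wnt6 and its neighbour Wnt10a, by group. Open points mark a group with fewer than 3 arrays well above background. Wnt3 runs from 58.8 to 176 in MHCIIhi, 6.59 to 16.0 in MHCIIlo and 2.21 to 9.40 in kidney, so its MHCIIlo and kidney points overlap. Wnt9b reaches 519.95 in kidney, and Wnt6 stays between 77.6 and 119.

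Promoters of Wnt3 and Wnt9b, neighbours called in opposite directions between kidney and intestine, are given as the 150 bases before each RefSeq start in GRCm38.p6, written 5′ to 3′ on the strand of the gene with every CpG in capitals. Wnt3 lies on the plus strand at chr11:103774025-103774174 and Wnt9b on the minus strand at chr11:103749822-103749971.
Wnt3: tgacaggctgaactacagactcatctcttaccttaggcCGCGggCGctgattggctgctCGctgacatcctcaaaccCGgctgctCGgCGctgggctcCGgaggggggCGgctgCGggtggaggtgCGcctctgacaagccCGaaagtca
Wnt9b: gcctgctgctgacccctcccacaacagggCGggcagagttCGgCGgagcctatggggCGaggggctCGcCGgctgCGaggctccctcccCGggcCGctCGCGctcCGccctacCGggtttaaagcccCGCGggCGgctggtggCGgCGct

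These stretches hold 12 CpG in Wnt3 and 18 in Wnt9b. RefSeq promoters were found for 25 of the 37 genes, with 28 starts. Over the 250 bases before the start, the ratio of observed to expected CpG had a median of 0.758 in the 28 windows, beside 0.373 over all 32851 windows of the table. The letters CTTTGAA and CTTTGAT, forms of the site bound by Tcf and Lef factors, were searched on both strands. They occurred in 3 of the 28 windows (10.7%), those of Dkk1, Wnt5b and Wnt11, at 117, 71 and 51 bases before the start, and in 7.48% of all windows. A match describes letters only.

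The rest of the pathway was read from 75 other genes, of which 72 were on the array and 64 were tested. In MHCIIhi 20 were called higher and 8 lower than in MHCIIlo; in kidney 15 were higher and 18 lower than in MHCIIhi, and 23 higher and 21 lower than in MHCIIlo. Over all genes tested the shares called higher and lower were 14.9% and 16.1%, 25.6% and 22.8%, and 29.8% and 27.8% in the same order. Known target genes of beta-catenin gave the most one-sided count in the intestine, with 11 of 17 higher in MHCIIhi and 0 lower. The median of these 17 was 2.12, beside -0.24 over all genes. Cd44, an adhesion receptor of crypt cells, rose by 3.32 ± 0.24 (limma adjusted p = 0.00023), Myc, a driver of growth, by 3.27 ± 0.27, Ccnd1, which encodes cyclin D1, by 3.06 ± 0.56 and Ephb2, which keeps cells low in the crypt, by 2.46 ± 0.24. Lgr5, the stem cell receptor for R-spondins, was at least 24.3-fold higher in MHCIIhi. Axin2, the target most often used as a readout of the pathway, differed by 0.76 ± 0.31 (adjusted p = 0.0689).

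Against kidney the same 17 targets split. In kidney 3 were higher and 10 lower than in MHCIIhi, and 9 higher and 5 lower than in MHCIIlo. Axin2 stood at 1.0 ± 0.57 in MHCIIhi, 0.24 ± 0.22 in MHCIIlo and -4.40 ± 0.38 in kidney (SD, n = 3 each), differences of -5.40 ± 0.31 and -4.64 ± 0.31. Myc lay between the intestinal groups in kidney, at -0.84, beside 1.24 in MHCIIhi and -2.03 in MHCIIlo. Many of the targets are also markers of crypt cells, and Lgr5, Ascl2, Axin2, Tnfrsf19 and Rnf43 stand on both lists. Of the 8 crypt stem cell markers, 4 were called higher in MHCIIhi than in MHCIIlo and 1 lower. That count is not separate from the count of targets.

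**Figure D5:**
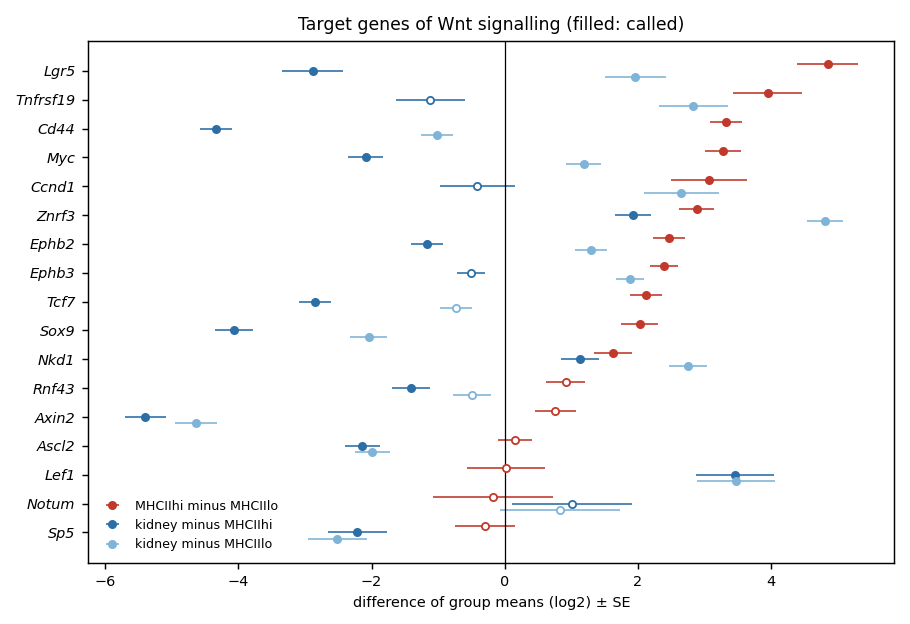
Difference (x axis, log2, point and SE) of the 17 target genes in the 3 comparisons, ordered by their difference between MHCIIhi and MHCIIlo; filled points were called. The intestinal points of 11 genes lie beyond 1, whereas Ascl2 and Sp5 lie at 0.15 and -0.30 there and below -1 in both kidney comparisons.

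Planar polarity genes were called in 1 direction between the tissues. Of 9 planar polarity genes on the array, 7 were higher in kidney than in MHCIIhi and 7 higher than in MHCIIlo, with 0 lower in either, beside 25.6% and 29.8% of all genes called higher. Prickle1, Prickle2 and Daam2 among them passed the filter through kidney alone, which favours genes higher there, so they support no statement about direction. Celsr2, an adhesion receptor of that route, gave 4.19 ± 0.41 and 4.68 ± 0.41. In MHCIIhi 4 of the 9 were higher than in MHCIIlo and 0 lower, beside 14.9% and 16.1% of all genes. Of these 4, Vangl2 and Prickle1 were measured on no MHCIIlo array, and Prickle1 on 2 MHCIIhi arrays. Wls, which carries Wnt proteins to the cell surface, stood at 0.78 ± 0.52 in MHCIIhi, -1.17 ± 0.64 in MHCIIlo and 3.51 ± 0.04 in kidney (SD, n = 3 each), and the 3 pairwise differences were 1.95, 2.74 and 4.68. Porcn, which attaches the lipid to Wnt proteins, was 1.98 ± 0.22 higher in MHCIIhi than in MHCIIlo. Rspo1, an R-spondin and the last of the 3 tested genes for agonists and secretion, went the other way. It differed by -4.54 ± 1.11 (limma adjusted p = 0.0112), at least 6.44-fold. No MHCIIhi array and 2 MHCIIlo arrays measured Rspo1, and its SD in MHCIIlo was 2.75.

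Other secreted inhibitors showed large differences too. Sostdc1, which blocks Wnt and BMP signals, was measured in kidney and on no intestinal array, at least 728-fold above MHCIIhi and 349-fold above MHCIIlo. Frzb, an Sfrp relative outside the name rule, was at least 13.6-fold and 6.50-fold higher in kidney. Kremen2, a receptor for Dkk1, ran the other way, with differences of -3.60 ± 0.31 and -4.07 ± 0.31. The co-receptor Lrp6 differed by -0.01 ± 0.24 between kidney and MHCIIhi and by -0.64 ± 0.24 between kidney and MHCIIlo, and Lrp5 by -0.10 ± 0.36 and -0.96 ± 0.36; neither was called. In the cytoplasm and nucleus, Tle2, a co-repressor of Tcf factors, was 6.42 ± 0.34 higher in kidney than in MHCIIhi, and Dvl1, which relays the Frizzled signal, differed by -1.52 ± 0.25 between MHCIIhi and MHCIIlo. Tcf7l1, a repressing Tcf factor, was 3.28 higher in kidney than in MHCIIhi and Prickle1, of the planar polarity route, 3.72 higher, whereas Cd44 and Sox9, a crypt transcription factor, differed by -4.34 and -4.07. Against MHCIIlo, Celsr1 and Vangl1, also of that route, were 3.45 and 2.83 higher in kidney, and the co-repressor Tle3 and the Wnt co-receptor Ptk7 differed by -3.34 and -3.15. Between the intestinal groups Ptk7, Tle3 and Ror2, a receptor for Wnt5a, gave -1.41, -1.40 and -1.25.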

How the data were processed

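Each of the 9 samples was hybridised to a single-colour (Cy3) Agilent array, and the authors deposited scanner output that, per the file headers, came from version 10.5.1.1 of Agilent Feature Extraction. The intensity used is the processed signal, which per the file headers is background-subtracted and holds a surrogate value for dim spots. The deposited value table, also linear intensity, equalled the processed signal over the median of its array to within a relative 2.37e-05; the sources used here do not state its processing.

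From 43379 non-control spots, spots of a probe were averaged (41174 probes), and the log2 of processed signal over the 75th percentile of each array was fitted by group over all 9 arrays with limma 3.58.1 in R 4.3.3. Adjusted p-values are Benjamini-Hochberg over all 19993 genes tested. The fit was tested on simulated data. The labels call the pools of a group independent. The number of arrays limits the precision.

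Every member is accounted for, and those tested and called at least once are given in full. Of other pathway genes, up to 4 each way and comparison were to be named, by size of difference. They were taken from called genes that 2 or more arrays measured in each of both groups. Lgr5, Ascl2, Sp5, Porcn, Rspo1, Sostdc1, Frzb, Lrp5, Lrp6, Vangl2, Prickle2 and Daam2 were added after their values were seen. Members and lists were chosen with earlier results of these data known. Alternatives were quantile normalization, normexp background correction on the raw mean and background intensities, the deposited value table, other filters, the mean of a gene's probes, blocks for slide and replicate number, and leaving out arrays. The alternative values given are those of the members. Values and counts of the other pathway genes come from the main processing alone. Probe names and positions were taken from the file of each array. The labels state no pairing, and the main fit did not pair samples by replicate number.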

Additional observations from a re-analysis of the deposited data

How the results depend on the processing

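Of 991 alternative values for the 54 called differences, 925 kept direction and call, and 23 differences kept both throughout. The deposited value table is among these alternatives, but scaling it returns the main values, so it was bound to keep all 54. With normexp 25 of the 54 kept both, 16 kept the direction without the call and 13 reversed. For MHCIIhi against MHCIIlo the count of 9 became 2 with normexp, 2 among genes measured on all 9 arrays, 2 with slide as a fixed block and 5 with the arrays of the comparison only. Leaving out 1 array gave 5 (without MHCIIhi 1) to 13 (without MHCIIhi 3), and leaving out MHCIIhi 3 and MHCIIlo 1, chosen after seeing the data, gave 15. For kidney against MHCIIhi the count of 23 became 12 with normexp and 6 among genes measured on all 9 arrays, and ran from 23 to 24 without 1 array. Against MHCIIlo the count of 22 became 6 on all 9 arrays and ran from 21 to 23. Among genes measured on all 9 arrays, 10 members were tested. The shares of all such genes called were 29.8% for MHCIIhi minus MHCIIlo, 40.3% for kidney minus MHCIIhi and 52% for kidney minus MHCIIlo. Shares of all genes under the other settings are not given. There the counts cannot tell a change in the family from a change in all genes.

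Reversals came with normexp alone: Fzd6 -0.46 between the intestinal groups; Dkk1 -0.61, Fzd3 -0.11, Sfrp5 -0.24, Wnt2 -0.19 and Wnt5a -0.48 for kidney minus MHCIIhi; Fzd3 -0.82, Sfrp2 -0.56, Sfrp5 -1.03, Wnt16 -0.49, Wnt2 -1.17, Wnt4 -0.25 and Wnt5a -1.51 for kidney minus MHCIIlo. Normexp adds an offset of 50 to every spot, and moved the median of all genes to -0.50, -0.35 and -0.61 in the 3 comparisons, from -0.24, -0.02 and 0.04; the cause of the reversals was not tested. Same-numbered arrays correlated from -0.35 to 0.28 over 9 pairs, 2 of them over 0.1. MHCIIhi 1 correlated best with MHCIIlo 1 (0.189) and MHCIIlo 3 with MHCIIhi 3 (0.275). No array correlated best with its own number in both other groups. The replicate block gave counts of 8, 23 and 22. Genes not well above background in a group have only a bound there.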
